A study of Mus musculus with 4 samples.

Results

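The genes described here are the ligands *Bmp2*, *Bmp4* and *Bmp7* of the bone morphogenetic protein (BMP) family and 7 genes that respond to BMP signaling or limit it, namely *Id1*, *Id2*, *Id3*, *Msx1*, *Msx2*, *Bambi* and *Smad6*. They were chosen by gene symbol, as ligands and as known direct targets and feedback inhibitors of the pathway, with earlier results of these data known. They are 10 of the 24347 genes with deposited values. The values come from RNA-seq of mouse embryonic stem cells (mESCs) that had been left to aggregate and differentiate as embryoid bodies (EBs) until day 3. The study concerned NEMEP, a micropeptide encoded by *Gm11549*, and its function in mesendoderm differentiation. WT mESCs gave 2 samples (WT 1 and WT 2) and mESCs with a deleted *Gm11549* promoter (promoter KO, here KO for short) gave 2 samples (KO 1 and KO 2).

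Both groups were of the 129/Ola strain and were grown as EBs in serum medium after LIF, the cytokine that holds mESCs in self-renewal, had been taken away, and neither group received a further treatment. The labels name bacterial plates for this step, where the study's methods name dishes of ultra-low attachment. The promoter deletion was made by CRISPR/Cas9 with a pair of sgRNAs, and clones were grown from single sorted cells. The study's methods list promoter-KO-1 and promoter-KO-2 under the oligonucleotide pairs for this deletion, but do not tie these names to the samples. Whether KO 1 and KO 2 came from different clones is not given in the sources used here. The study's methods speak of biological replicates and a figure legend calls the 2 samples biologically independent, but neither these nor the labels say that they were separate cultures, so the p-values below measure only the spread between these samples, which may be technical. The labels name the cells of all 4 samples ES-derived mesendoderm cells.

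BMP ligands are secreted dimers that bring type I and type II receptors together, and the type I receptor then phosphorylates SMAD1, SMAD5 and SMAD9, which enter the nucleus with SMAD4. There they activate the *Id* genes, whose products keep basic helix-loop-helix factors from binding DNA, and the homeobox genes *Msx1* and *Msx2*, while BAMBI at the membrane and SMAD6 in the cytoplasm limit the signal. In the gastrulating mouse embryo BMP4 is needed for mesoderm formation and patterns the primitive streak, and in mESCs the BMP activity of serum supports self-renewal through the *Id* genes.

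Expression is given in FPKM, a count of sequenced fragments that has been divided by transcript length and by the size of the library, so that levels can be compared between genes. The FPKM of all genes summed to 677777 in WT 1, 696928 in WT 2, 673951 in KO 1 and 679870 in KO 2. The lowest values placed the depth near 24600000, 21900000, 21500000 and 20000000 fragments in the same order. The question of each comparison was whether a gene's level differed between KO and WT EBs. It was tested with limma on log2(FPKM + 1) in the 11941 genes with 2 or more samples at 1 FPKM or above, and a gene was called when its Benjamini-Hochberg adjusted p over all these genes was under 0.05. Fold changes are KO minus WT on the log2(FPKM + 1) scale, which understates the change of genes with low values. For any gene taken alone, exact permutation of 2 samples against 2 stops at a two-sided p of 0.333. Limma can go lower because it assumes normal errors, and it also shares the variance between genes.

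The targeted gene itself was low. *Gm11549* (GRCm38, chr3:36515057-36521813, minus strand) was at 0.751 FPKM in WT 1, 0.522 in WT 2, 0 in KO 1 and 0.0659 in KO 2. These levels stand for about 49, 30, 0 and 3 fragments, and the gene did not reach the level needed for a test. Both KO samples were below both WT samples, in the direction of their labels. Transcripts of mesendoderm were present in all 4 samples, and *T*, the brachyury gene of the primitive streak, was at 306 FPKM in WT 1, 448 in WT 2, 50.6 in KO 1 and 127 in KO 2. *Pou5f1*, a pluripotency gene, was still at 1188 to 1545 FPKM, so the EBs of both genotypes had mesendoderm and pluripotency transcripts side by side.

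WT 2 stood apart from WT 1 for the BMP genes. All 10 members were higher in WT 2 than in WT 1, while among all tested genes 49.1% were. The median difference WT 2 minus WT 1 was 0.56 on the log2(FPKM + 1) scale for the members and -0.004 for all tested genes, and 7 of the 10 members differed by more than 0.5, as did 3.89% of tested genes in the same direction. The largest difference was in *Msx2*, with 2.48 FPKM in WT 1 and 9.65 in WT 2, followed by *Bmp4* with 3.73 and 8.90. The KO samples were closer to each other. The members' median absolute difference was 0.12, against 0.561 between the WT samples, and 0.138 for all tested genes between the KO samples. With its sign, the members' median difference KO 2 minus KO 1 was 0.062. In KO 2, 7 of 10 members were higher, beside 53.5% of tested genes, and 2 of them, *Bmp2* and *Smad6*, by more than 0.5, beside 3.79%. The choice of WT sample therefore matters for most of these genes, and each member's value without WT 2 is given beside its result.

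**Figure D1:**
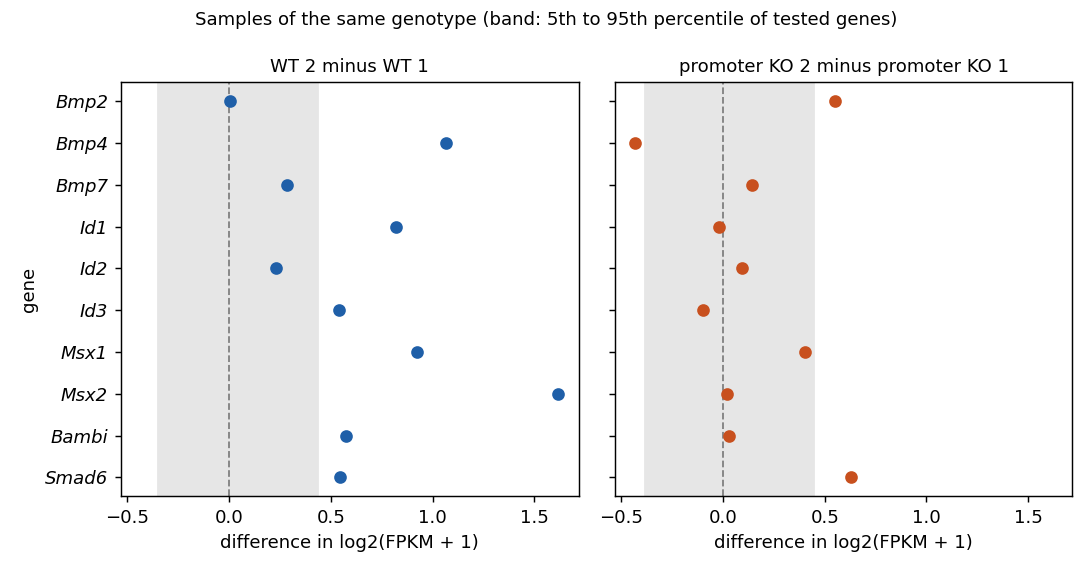
Difference in log2(FPKM + 1) between the samples of the same genotype for each member, WT 2 minus WT 1 on the left and KO 2 minus KO 1 on the right, with a gray band from the 5th to the 95th percentile of the 11941 tested genes. In WT, 7 of 10 points lie above the band and none lies below 0, while in KO 2 of 10 points, *Bmp2* and *Smad6*, lie above it and 1, *Bmp4*, lies below it.

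The 10 members were spread over a wide range of levels. By the mean of the 4 samples, *Id3* (105 FPKM) and *Id1* (86.2) were the most abundant, followed by *Msx1* (27.7), *Id2* (16.3), *Bmp4* (6.25), *Bmp7* (5.29), *Smad6* (4.84), *Msx2* (3.74), *Bmp2* (2.55) and *Bambi* (2.17). The samples of neighbors in this order overlapped, except that every sample of *Id1* was above every sample of *Msx1*, and every sample of *Id2* above every sample of *Bmp4*. In each sample *Id1*, *Id2*, *Id3* and *Msx1* were above each of the 3 ligands.

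**Figure D2:**
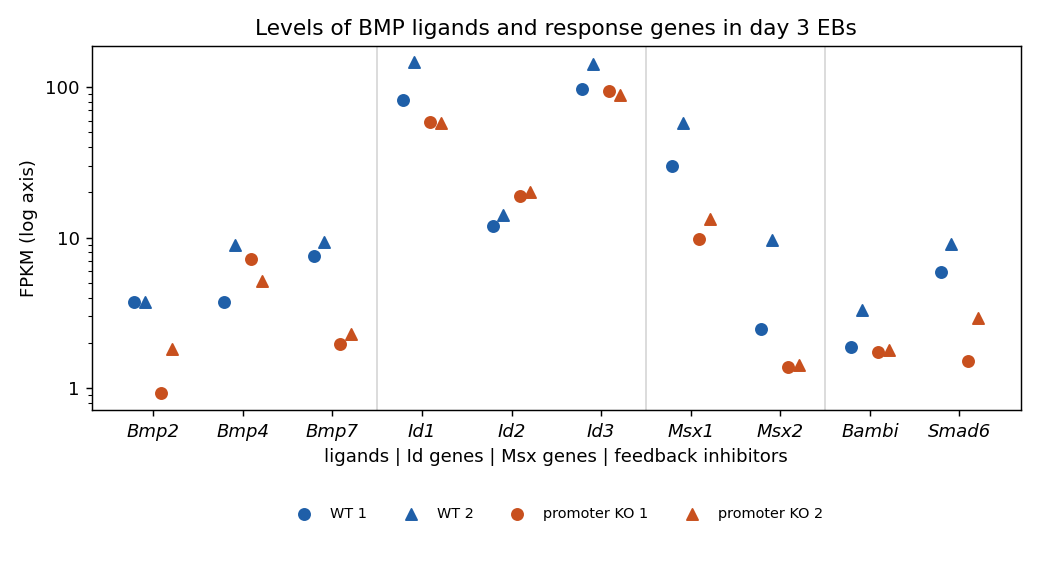
FPKM of each member in the 4 samples on a log axis, WT in blue and KO in orange, with circles for replicate 1 and triangles for replicate 2. Both KO points lie below both WT points in 8 genes and above them in *Id2*, and the points of *Bmp4* are mixed.

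Across the group, 2 of the 10 members were called lower in KO EBs, *Bmp7* and *Msx1*, and 0 were called higher, where 1.89% of all tested genes were called lower and 1.68% higher. These counts depended on single samples, since limma called 0 members without WT 2 and 0 without KO 1 (7 and 6 at an unadjusted p under 0.05), but 4 lower and 0 higher without WT 1 (*Bmp7*, *Id1*, *Msx1* and *Msx2*), beside 0.955% of all tested genes lower and 0.511% higher, and 3 lower and 0 higher without KO 2 (*Bmp2*, *Bmp7* and *Smad6*), beside 2.08% and 1.99%. A replicate block, which treats samples of the same number as pairs, called 6 members, with *Bmp2*, *Bmp7*, *Id1*, *Msx1* and *Smad6* lower and *Id2* higher, where it called 5.59% of all tested genes lower and 4.48% higher, although the labels do not say that the samples were paired. The KO samples were the lower pair in 8 members and the higher pair in 1 (*Id2*), and in 1 (*Bmp4*) the groups overlapped, against a background of 32.4% of tested genes below and 32.9% above. At an unadjusted p under 0.05, 6 members were lower and 1 was higher, where 15.6% of tested genes were lower and 15.0% higher. The median log2 fold change was -0.96 for the members and 0.004 for all tested genes. With a sample left out, the members' median was -0.51 without WT 2, -0.83 without KO 1, -1.09 without KO 2 and -1.17 without WT 1. The loss of every limma call without WT 2 and without KO 1 was not particular to the members, since it extended to all tested genes. All 10 members passed the filter on low values, and all but *Bmp2* were above 1 FPKM in each of the 4 samples. In bulk EBs, fewer cells of a type and less RNA per cell cannot be told apart for any of these differences.

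**Figure D3:**
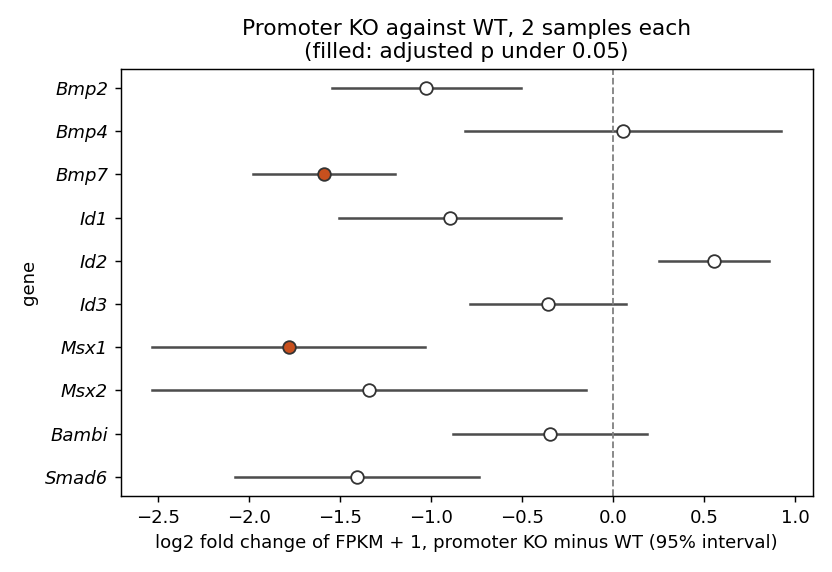
Log2 fold change on the FPKM + 1 scale, KO minus WT, for each member with its 95% confidence interval from limma, with 2 samples per genotype. The filled points are *Bmp7* at -1.59 and *Msx1* at -1.78, which had an adjusted p under 0.05, and the intervals of *Bmp4*, *Id3* and *Bambi* cross 0.

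The promoter windows of 3 members are shown, those of *Msx1*, the response gene that was called, of *Smad6*, which was lower in both KO samples, and of *Bmp4*, whose groups overlapped. They are the 250 bases before the start of the gene in RefSeq (GRCm38.p6), in the direction of the gene, and they were chosen because they overlap no exon of GENCODE M21. RefSeq windows of 6 of the 10 members were used here. Those of *Id2*, the member that was higher in both KO samples, *Id3* and *Msx2* overlap exons of their own genes and are not shown. Capitals mark matches to GGCGCC or GGAGCC, GC-rich motifs described for SMAD1 and SMAD5, or to the SMAD palindrome GTCTAGAC, searched on both strands, so that GGAGCC on the opposite strand reads GGCTCC. No match to any of these motifs is contained in a match to another. The *Msx1* window is chr5:37824586-37824835, the *Smad6* window chr9:64022060-64022309 and the *Bmp4* window chr14:46390670-46390919, all on the minus strand.
Msx1: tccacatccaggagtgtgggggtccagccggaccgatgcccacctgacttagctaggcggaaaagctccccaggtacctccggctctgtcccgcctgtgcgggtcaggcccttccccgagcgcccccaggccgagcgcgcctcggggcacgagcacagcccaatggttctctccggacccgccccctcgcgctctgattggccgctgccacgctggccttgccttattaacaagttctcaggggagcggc
Smad6: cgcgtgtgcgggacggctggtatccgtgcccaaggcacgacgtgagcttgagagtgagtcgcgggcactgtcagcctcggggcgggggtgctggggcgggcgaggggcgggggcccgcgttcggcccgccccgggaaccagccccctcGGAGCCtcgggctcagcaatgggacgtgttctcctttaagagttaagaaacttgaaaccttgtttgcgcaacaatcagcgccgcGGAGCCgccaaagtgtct
Bmp4: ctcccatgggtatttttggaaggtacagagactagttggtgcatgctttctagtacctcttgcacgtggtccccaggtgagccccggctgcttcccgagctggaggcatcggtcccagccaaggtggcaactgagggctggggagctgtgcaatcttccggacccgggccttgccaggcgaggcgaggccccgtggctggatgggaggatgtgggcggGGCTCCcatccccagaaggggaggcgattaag

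The *Smad6* window held 2 matches to GGAGCC, the *Bmp4* window held 1 on the opposite strand, and the *Msx1* window held none of the 3 motifs. The 3 windows not shown all held matches. That of *Id2* had 1 GGCGCC and 1 GGAGCC, and on the opposite strand GGAGCC was found 1 time in *Id3* and 2 times in *Msx2*. Among 32851 RefSeq windows of the same length, 26.0% held GGAGCC in either direction, 9.59% held GGCGCC and 0.167% held GTCTAGAC. The 3 windows shown were rich in G and C, with 68.0% in *Msx1*, 66.8% in *Smad6* and 63.2% in *Bmp4*, beside a median of 52.4% over all windows. The matches describe the letters only, and binding was not measured here.

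Among the ligands, *Bmp7* fell while *Bmp4* did not differ beyond its spread. *Bmp7* (chr2:172868012-172940321, minus strand), which forms dimers with other BMPs, was at 7.51 FPKM in WT 1, 9.38 in WT 2, 1.98 in KO 1 and 2.28 in KO 2. Its KO samples were close to each other and well below both WT samples, and the WT mean was 3.96 times the KO mean. Between the genotypes the log2 fold change was -1.59 (SE 0.16, 95% interval -1.98 to -1.20, limma with Benjamini-Hochberg adjusted p = 0.0233). Its size changed little when a sample was left out, but the call was lost without WT 2 (-1.44, limma with Benjamini-Hochberg adjusted p = 0.134) and without KO 1 (-1.52, adjusted p = 0.127). Over all alternatives with a test, the adjusted p of *Bmp7* in limma with Benjamini-Hochberg adjustment ranged from 0.00964 to 0.134.

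*Bmp2* (chr2:133552159-133562885, plus strand), a ligand close to BMP4 in sequence, was at 3.72 FPKM in WT 1, 3.75 in WT 2, 0.924 in KO 1 and 1.81 in KO 2. The WT samples were nearly equal, and the KO samples, both lower, differed 1.96-fold from each other. The difference missed the threshold (log2 fold change -1.02, SE 0.21, 95% interval -1.54 to -0.51, limma with Benjamini-Hochberg adjusted p = 0.0561). It passed without KO 2, the higher of the KO samples (-1.30, limma with Benjamini-Hochberg adjusted p = 0.0430, range over the alternatives 0.0368 to 0.247). Without WT 2 the size was the same, but the adjusted p was the highest of this range (-1.02, limma with Benjamini-Hochberg adjusted p = 0.247).

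*Bmp4* (chr14:46383520-46390669, minus strand), the ligand best known from gastrulation, was at 3.73 FPKM in WT 1, 8.90 in WT 2, 7.25 in KO 1 and 5.13 in KO 2. The WT samples were the lowest and the highest of the 4, with both KO samples between them. On the log2 scale the difference was 0.055 (SE 0.35, 95% interval -0.81 to 0.92, limma with Benjamini-Hochberg adjusted p = 0.932). This interval takes in a lower as well as a higher level, and the sign depended on the WT sample, at -0.48 without WT 1 and 0.59 without WT 2. Its exons overlap those of *Gm15217*, which is listed at 0 in all 4 samples.

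The make-up of the ligand transcripts is given here as shares, which were not tested. *Bmp4* made up 24.9% of the summed FPKM of the 3 ligands in WT 1 and 40.4% in WT 2, and 71.4% in KO 1 and 55.6% in KO 2. *Bmp7* made up 50.2% and 42.6% in WT, and 19.5% and 24.8% in KO. The share of *Bmp2* overlapped between the groups, at 24.9% and 17.0% in WT and 9.10% and 19.7% in KO. The summed level of the 3 ligands was 15.0 FPKM in WT 1, 22.0 in WT 2, 10.2 in KO 1 and 9.23 in KO 2. *Bmp7* was thus the most abundant of the 3 in both WT samples and *Bmp4* in both KO samples.

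Other BMP-class ligands were scarce. Of 11 further ligand genes, only *Bmp6* reached the level needed for a test, at 0.677 FPKM in WT 1, 0.658 in WT 2, 1.27 in KO 1 and 1.51 in KO 2. It was higher in both KO samples and missed the threshold (log2 fold change 0.52, SE 0.16, limma with Benjamini-Hochberg adjusted p = 0.0950). The 10 other ligand genes stayed at or below 1.39 FPKM, the level of *Bmp8a* in KO 1. Limma called 0 of these genes, and 1 (*Bmp6*) had an unadjusted p under 0.05.

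None of the receptors was called. Of 11 receptor and co-receptor genes 9 were tested and limma called 0 (at an unadjusted p under 0.05 there were 2 lower and 1 higher), and the groups overlapped in 5. Their median log2 fold change was -0.12, and their summed level was 73.3 FPKM in WT 1, 67.6 in WT 2, 68.5 in KO 1 and 67.7 in KO 2. *Bmpr1a*, a type I receptor for BMP2 and BMP4, was at 16.5 and 14.0 FPKM in WT EBs and at 11.8 and 15.6 in KO EBs, and its samples overlapped. *Acvr2b*, a type II receptor, was the most abundant, at 22.8 and 18.4 FPKM in WT and 15.6 and 16.4 in KO. *Eng*, the co-receptor endoglin, was at 6.69 and 7.22 FPKM in WT EBs and at 17.3 and 9.14 in KO EBs, a difference that missed the threshold (log2 fold change 0.78, SE 0.27, limma with Benjamini-Hochberg adjusted p = 0.125). Without KO 2, the lower of its KO samples, *Eng* was called higher (1.20, limma with Benjamini-Hochberg adjusted p = 0.0410), the 1 receptor gene called with a sample left out.

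Among the transducers, *Smad1* was called lower. It was at 17.2 FPKM in WT 1, 24.4 in WT 2, 9.43 in KO 1 and 10.5 in KO 2, so that both KO samples were below both WT samples. The fitted log2 fold change was -0.98 (SE 0.18, 95% interval -1.41 to -0.54, limma with Benjamini-Hochberg adjusted p = 0.0482). This call lay close to the threshold and was lost under 8 of 11 alternatives with a test, among them the fits without WT 2 (-0.74), without KO 1 (-0.91) and without KO 2 (-1.04). *Smad5*, which acts beside SMAD1, was at 8.45 and 8.64 FPKM in WT EBs and at 7.14 and 7.38 in KO EBs and was not called. *Smad4*, the shared partner, was at 41.0 and 39.3 FPKM in WT EBs and at 32.5 and 35.7 in KO EBs and was not called either. *Smad9* stayed at or below 0.246 FPKM, and *Zfp423*, a SMAD partner, was at 8.23 and 9.39 FPKM in WT EBs and at 9.64 and 10.7 in KO EBs. In all, 1 of the 6 tested genes of this list of 8 was called.

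The 3 *Id* genes did not share a direction, and none of them was called. *Id1* (chr2:152736251-152737410, plus strand) was at 82.2 FPKM in WT 1, 146 in WT 2, 58.8 in KO 1 and 58.1 in KO 2. The KO samples were almost equal and below both WT samples, which were 1.77-fold apart. The log2 fold change missed the threshold (-0.90, SE 0.25, 95% interval -1.50 to -0.29, limma with Benjamini-Hochberg adjusted p = 0.0831). Against WT 1 alone it was -0.49, and against WT 2 alone it was -1.31 and passed (limma with Benjamini-Hochberg adjusted p = 0.0306, range over the alternatives 0.0306 to 0.293).

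*Id3* (chr4:136143497-136145755, plus strand) was at 97.1 FPKM in WT 1, 142 in WT 2, 94.6 in KO 1 and 88.3 in KO 2. WT 1 lay just above KO 1, and WT 2 was the high sample. The log2 fold change was -0.36 (SE 0.18, 95% interval -0.79 to 0.07, limma with Benjamini-Hochberg adjusted p = 0.223), and without WT 2 it was -0.087.

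*Id2* (chr12:25093799-25097140, minus strand) was the member with the opposite direction, at 11.9 FPKM in WT 1, 14.2 in WT 2, 18.9 in KO 1 and 20.2 in KO 2. The samples of each genotype were close, and the KO samples were the higher pair. Between the genotypes the log2 fold change was 0.55 (SE 0.12, 95% interval 0.25 to 0.86) and missed the threshold (limma with Benjamini-Hochberg adjusted p = 0.0621). Its sign was positive under every alternative run, from 0.44 without WT 1 to 0.67 without WT 2 (limma with Benjamini-Hochberg adjusted p = 0.153 and 0.204), median centring and quantile normalization included. It passed under the replicate block (limma with Benjamini-Hochberg adjusted p = 0.0438, range over the alternatives 0.0438 to 0.212).

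*Id1* and *Id3* together made up most of the *Id* transcripts, so the summed level of the 3 genes followed them, at 191 FPKM in WT 1, 302 in WT 2, 172 in KO 1 and 167 in KO 2. *Id2* made up 6.23% of this sum in WT 1 and 4.70% in WT 2, and 11.0% in KO 1 and 12.1% in KO 2. *Id1* made up 43.0% and 48.3% in WT and 34.1% and 34.9% in KO. The share of *Id3* was 50.8% and 47.0% in WT and 54.9% and 53.0% in KO. The *Id* transcripts of KO EBs thus held a larger share of *Id2* and a smaller share of *Id1* in both samples. *Id4*, the remaining gene of the family, was at 2.38 and 3.29 FPKM in WT EBs and at 6.76 and 3.35 in KO EBs, and was not called (log2 fold change 0.61, SE 0.29, limma with Benjamini-Hochberg adjusted p = 0.217).

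**Figure D4:**
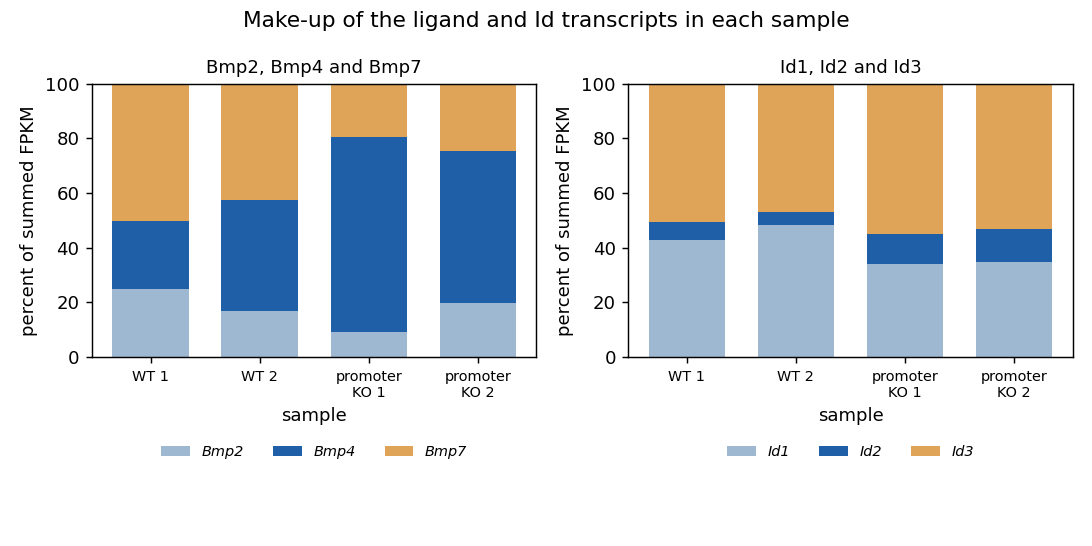
Share of each gene in the summed FPKM of *Bmp2*, *Bmp4* and *Bmp7* (left) and of *Id1*, *Id2* and *Id3* (right) in each of the 4 samples, as stacked bars that start at 0. *Bmp4* takes 71.4% and 55.6% of the ligand sum in the KO samples and 24.9% and 40.4% in WT, and *Id2* takes 11.0% and 12.1% of the *Id* sum in KO and 6.23% and 4.70% in WT.

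*Msx1* had the largest fold change of the 10 members on the log2(FPKM + 1) scale, while *Msx2* and *Bmp7* had larger ratios of mean FPKM. *Msx1* (chr5:37820485-37824583, minus strand), a homeobox gene of mesoderm and neural crest, was at 29.9 FPKM in WT 1, 57.7 in WT 2, 9.78 in KO 1 and 13.3 in KO 2. Both WT samples were above both KO samples, and the WT mean was 3.80 times the KO mean. On the log2 scale the difference was -1.78 (SE 0.31, 95% interval -2.53 to -1.03, limma with Benjamini-Hochberg adjusted p = 0.0467). The direction held under all 12 alternatives, from -2.24 to -1.32, but the call was lost under 7 of the 11 with a test, with adjusted p in limma with Benjamini-Hochberg adjustment from 0.00830 to 0.196 over all alternatives. Among these were the fits without WT 2 (-1.32), without KO 1 (-1.58) and without KO 2 (-1.98).

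*Msx2* (chr13:53466884-53473074, minus strand) was at 2.48 FPKM in WT 1, 9.65 in WT 2, 1.39 in KO 1 and 1.42 in KO 2. Both KO samples were low and nearly equal, WT 1 lay not far above them, and WT 2 was 3.90 times WT 1. The ratio of the WT mean to the KO mean was 4.31. With this spread the difference was not called (log2 fold change -1.34, SE 0.49, 95% interval -2.53 to -0.15, limma with Benjamini-Hochberg adjusted p = 0.135). The value was -0.53 without WT 2 and -2.15 without WT 1, where it passed (limma with Benjamini-Hochberg adjusted p = 0.0306, range over the alternatives 0.0306 to 0.386). *Msx1* made up between 85.7% and 92.3% of the summed *Msx* transcripts in the 4 samples.

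The feedback inhibitors differed in size. *Smad6* (chr9:63953076-64022059, minus strand), the inhibitory SMAD that acts mainly on BMP receptors, was at 5.89 FPKM in WT 1, 9.06 in WT 2, 1.52 in KO 1 and 2.91 in KO 2. The groups were well apart, with a WT mean 3.37 times the KO mean, although the samples of each genotype also differed by more than 1.5-fold. The fitted log2 fold change was -1.41 (SE 0.28, 95% interval -2.08 to -0.73) and just missed the threshold (limma with Benjamini-Hochberg adjusted p = 0.0523). It passed without KO 2 (-1.72, limma with Benjamini-Hochberg adjusted p = 0.0497, range over the alternatives 0.0115 to 0.245). Without WT 2 the fold change was smaller and further from the threshold (-1.13, limma with Benjamini-Hochberg adjusted p = 0.245).

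*Bambi* (chr18:3507923-3516404, plus strand), which encodes a receptor-like membrane protein without a kinase domain, was at 1.88 FPKM in WT 1, 3.29 in WT 2, 1.73 in KO 1 and 1.79 in KO 2. WT 1 was barely above the KO samples and WT 2 was the high sample. The log2 fold change was -0.35 (SE 0.22, 95% interval -0.88 to 0.19, limma with Benjamini-Hochberg adjusted p = 0.322), and without WT 2 it was -0.059.

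*Smad7*, the other inhibitory SMAD, which also limits Nodal and TGF-β signaling, had the opposite direction from *Smad6*. It was at 15.5 FPKM in WT 1, 13.6 in WT 2, 32.5 in KO 1 and 24.5 in KO 2, so that both KO samples were above both WT samples. Between the genotypes the log2 fold change was 0.91 (SE 0.16, 95% interval 0.53 to 1.30, limma with Benjamini-Hochberg adjusted p = 0.0460). The call was lost under 7 of 11 alternatives with a test, among them the fits without WT 1 (1.00), without WT 2 (0.83) and without KO 1 (0.72).

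The other intracellular inhibitors were not called in the fit of all 4 samples without a block. *Tob1*, whose product binds SMADs, was at 9.92 and 8.38 FPKM in WT EBs and at 16.0 and 14.2 in KO EBs, higher in both KO samples (log2 fold change 0.67, SE 0.13, limma with Benjamini-Hochberg adjusted p = 0.0537, or 0.0338 and called under the replicate block). The SMAD corepressors *Ski* (31.1 and 27.5 FPKM in WT, 32.3 and 33.3 in KO) and *Skil* (29.9 and 23.6 in WT, 37.3 and 35.7 in KO) were also higher in both KO samples. *Fkbp1a*, which binds type I receptors, was the most abundant, at 365 to 409 FPKM. Of the 7 genes of this list, all tested, 1 was called higher and 0 lower, or 2 higher under the block, and at an unadjusted p under 0.05 there were 3 higher and 1 lower.

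Among the secreted antagonists 2 were called lower. *Fst*, which encodes follistatin, an antagonist of activin and of some BMPs, was at 138 FPKM in WT 1, 116 in WT 2, 58.8 in KO 1 and 76.1 in KO 2. All KO values lay below the WT values (log2 fold change -0.91, SE 0.15, limma with Benjamini-Hochberg adjusted p = 0.0422). *Cer1*, whose product binds Nodal and BMPs, was at 36.6 FPKM in WT 1, 26.1 in WT 2, 7.42 in KO 1 and 8.93 in KO 2, with the WT mean 3.84 times the KO mean (log2 fold change -1.80, SE 0.18, limma with Benjamini-Hochberg adjusted p = 0.0233). In these genes WT 1, not WT 2, was the higher WT sample. Without WT 2 both calls were lost (*Fst* -1.03, *Cer1* -2.04), as they were without KO 1 (-0.73 and -1.69), and *Fst* was also lost without WT 1 (-0.79).

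*Chrd*, which encodes the BMP antagonist chordin, was at 16.4 and 10.6 FPKM in WT EBs and at 4.87 and 8.36 in KO EBs, and missed the threshold (log2 fold change -0.94, SE 0.28, limma with Benjamini-Hochberg adjusted p = 0.0947). *Twsg1*, a modulator that binds chordin and BMPs, was at 24.5 and 22.1 FPKM in WT EBs and at 14.1 and 25.7 in KO EBs, and its groups overlapped. Of 17 genes of this list 8 were tested, 2 were called lower and 0 higher, and the summed level was 238 FPKM in WT 1, 208 in WT 2, 106 in KO 1 and 145 in KO 2. The summed levels of the 3 ligands and of this list were thus both lower in both KO samples than in both WT samples. *Fst* was the most abundant gene of the list, at 138 and 116 FPKM in WT EBs and at 58.8 and 76.1 in KO EBs. The groups overlapped in 5 of the 8 tested genes of the list.

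Other genes reported to respond to BMP followed the WT 2 pattern in part. Of 15 genes 7 were tested, limma called 0, and 2 were lower at an unadjusted p under 0.05. Without WT 1, limma called 1 of them lower (*Hand1*), and 4 had an unadjusted p under 0.05, while the replicate block called 2 lower (*Cdx2* and *Hey1*). In 6 of the 7, WT 2 was above WT 1. *Cdx2*, a gene of the posterior embryo and of trophectoderm, was at 5.77 FPKM in WT 1, 25.4 in WT 2, 2.49 in KO 1 and 5.51 in KO 2. *Tbx3* was at 1.58 FPKM in WT 1, 8.63 in WT 2, 6.16 in KO 1 and 4.82 in KO 2, with WT 1 the lowest and WT 2 the highest, the same order as in *Bmp4*. *Nanog*, a pluripotency gene, was at 140 and 113 FPKM in WT EBs and at 94.1 and 98.7 in KO EBs, and was not called.

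The WT 2 pattern was also seen in genes of lateral mesoderm, blood and vessel, but their direction in KO was mixed. *Hand1*, which is in this list and among the BMP-responsive genes, was at 1.27 FPKM in WT 1, 11.3 in WT 2, 0.792 in KO 1 and 0.678 in KO 2. *Etv2*, needed for blood and vessel precursors, was at 22.5 FPKM in WT 1, 29.8 in WT 2, 7.64 in KO 1 and 5.50 in KO 2, and was called lower (log2 fold change -1.84, SE 0.20, limma with Benjamini-Hochberg adjusted p = 0.0244). *Kdr*, the VEGF receptor of these precursors, was at 1.67 and 11.3 FPKM in WT EBs and at 0.364 and 0.289 in KO EBs, and was not called. *Pecam1*, an adhesion gene of endothelium, went the other way, at 1.83 and 2.97 FPKM in WT EBs and at 5.95 and 3.78 in KO EBs (log2 fold change 0.78, SE 0.25, limma with Benjamini-Hochberg adjusted p = 0.107). *Cdh5*, an untested cadherin gene of endothelium, was also higher in both KO samples, at 0.148 and 0.346 FPKM in WT EBs and at 0.531 and 0.546 in KO EBs. The summed level of the 8 genes of lateral mesoderm, blood and vessel was 28.4 FPKM in WT 1, 58.2 in WT 2, 16.3 in KO 1 and 11.9 in KO 2, with *Etv2* the most abundant. Of these genes 4 were tested and 1 was called lower, or 0 without WT 2 or without KO 1 and 3 without WT 1 (*Etv2*, *Hand1* and *Kdr*), and *Tal1* and *Gata1*, which define blood precursors, stayed below 1 FPKM. This sum ranked the WT samples as the summed level of the 10 members did, at 246 FPKM in WT 1, 403 in WT 2, 197 in KO 1 and 195 in KO 2, and its part in the result was not tested.

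Markers of other cell types moved with the genotype as well. Of 9 mesendoderm genes 6 were called lower (*Mixl1*, *Gsc*, *Mesp1*, *Evx1*, *Lhx1* and *Gata6*). The study marked the 9 genes on these samples, so the list is no independent evidence of its direction. It also names *Mixl1*, *T*, *Gsc* and *Foxa2* from an earlier RNA-seq study of EBs. The summed level of the 9 genes was 790 FPKM in WT 1, 1024 in WT 2, 152 in KO 1 and 320 in KO 2, with *T* the most abundant. *Mesp1*, a gene of nascent mesoderm, was at 27.0 FPKM in WT 1, 101 in WT 2, 0.759 in KO 1 and 4.24 in KO 2. Of 12 extraembryonic endoderm genes 8 were called higher (*Sox7*, *Dab2*, *Ttr*, *Amn*, *Cubn*, *Lama1*, *Col4a1* and *Sparc*). Not all of this list was higher, since *Sox17*, which is also a gene of definitive endoderm, was lower in both KO samples, at 13.3 and 17.3 FPKM in WT EBs and at 6.77 and 10.2 in KO EBs (log2 fold change -0.79, SE 0.21, limma with Benjamini-Hochberg adjusted p = 0.0779, or 0.0261 under the replicate block). *Gata4* overlapped between the groups, at 5.02 and 19.4 FPKM in WT EBs and at 9.68 and 13.8 in KO EBs. *Gata6*, counted here with mesendoderm, is also a gene of extraembryonic endoderm and was called lower. Its level was 12.8 and 21.7 FPKM in WT EBs and 4.13 and 5.18 in KO EBs. The summed level of the 12 genes was 87.1 FPKM in WT 1, 116 in WT 2, 218 in KO 1 and 280 in KO 2, and 0 of the 12 were at 0 FPKM in every sample. *Sparc*, the most abundant of them, was at 46.0 and 59.3 FPKM in WT EBs and at 111 and 134 in KO EBs. Limma called 0 genes of either list without WT 2 and without KO 1, as in the whole table, where 1875 and 2009 genes then had an unadjusted p under 0.05. Without WT 1 it called 3 mesendoderm genes lower and 6 extraembryonic endoderm genes higher, and without KO 2 it called 7 and 6. The part of these cell types in the levels of the BMP genes was not tested.

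Pluripotency genes had a summed level of 1775 FPKM in WT 1, 1502 in WT 2, 1995 in KO 1 and 1877 in KO 2, with *Pou5f1* the most abundant. The sum followed *Pou5f1*, which was lower in WT 2, but 7 of the 9 genes were higher in WT 2 than in WT 1, as all 10 members were. Among them were *Klf4* (1.23 and 5.07 FPKM in WT, 5.02 and 4.69 in KO), *Klf2* (23.8 and 54.2 in WT, 78.0 and 51.5 in KO) and *Dppa3* (1.23 and 4.13 in WT, 1.34 and 1.12 in KO). Limma called 0 of the 9 genes, and at an unadjusted p under 0.05 there were 4 higher and 1 lower. Without KO 2 limma called 2 genes higher (*Sox2* and *Esrrb*), and a fold change above 2 with an unadjusted p under 0.05 in the fit of all 4 samples gave *Esrrb* and *Zfp42*, both higher. *Sox2* was at 88.4 and 102 FPKM in WT EBs and at 201 and 129 in KO EBs. *Nanog* counts in this list and among the genes reported to respond to BMP. The part of undifferentiated cells in the levels of the *Id* genes, which mESCs express in serum, was not tested.

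**Figure D5:**
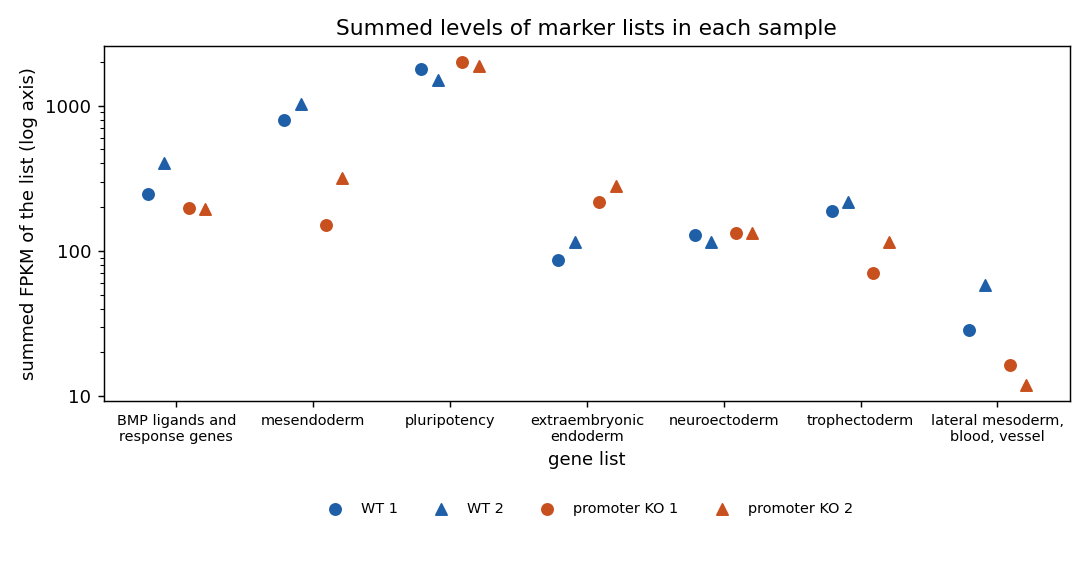
Summed FPKM of the 10 members and of 6 marker lists in each of the 4 samples on a log axis, WT in blue and KO in orange. The sums of the members, of mesendoderm, of trophectoderm and of lateral mesoderm are lower in both KO samples than in both WT samples, those of pluripotency, extraembryonic endoderm and neuroectoderm are higher, and WT 2 is above WT 1 in the members (403 and 246 FPKM).

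The number of fragments behind a value differed widely between the members. The lowest estimates were 64 and 67 fragments for *Msx2* in KO 2 and KO 1, 67 for *Bmp2* in KO 1 and 91 for *Smad6* in KO 1, and *Id3* reached about 3349 in WT 2. The estimated depth of the 4 samples differed by less than 1.5-fold. None of the 10 members has another annotated gene with a transcript that shares 95% or more of its bases over 200 bases or longer.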

How the data were processed

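RNA-seq expression was analysed in day 3 EBs of 2 genotypes with 2 samples each, grouped by the genotype in the labels. The values the authors deposited are estimates of Cufflinks, 1 file per sample, and were taken as FPKM, although the study's methods name the unit RPKM. The methods name TopHat and the GENCODE M4 annotation, whereas the submitters' processing notes name HISAT2 2.1.0, Cufflinks and Cuffnorm, and both give mm10. The strand setting is not given in the sources used here, and reads were not used here.

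Genes at or above 1 FPKM in 2 or more samples were tested on log2(FPKM + 1) with limma 3.58.1 in R 4.3.3 (lmFit, eBayes with an intensity trend) without further normalization, with Benjamini-Hochberg adjustment over all tested genes. The test was run on simulated data with independent normal errors. Such data cannot show how it behaves with technical replicates or an outlying sample. Depth was estimated from the smallest values of genes with a single transcript, for an assumed fragment length of 200 bases. Coordinates are those of GENCODE M21 (GRCm38), near-identical copies were searched with BLAST 2.17.0, and promoter windows are from RefSeq. Tables and figures were made with Python 3.11.15, pandas 2.3.3, numpy 2.4.6 and matplotlib 3.10.9.

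The members, and the lists of other ligands, receptors, SMAD transducers, antagonists, intracellular inhibitors, other response genes, mesendoderm, pluripotency, extraembryonic endoderm, neuroectoderm, trophectoderm and lateral mesoderm genes, were chosen with earlier results of these data known. All members were named, and the genes named from each list are among its called genes and its 3 genes with the highest mean FPKM. *Smad5*, *Smad9*, *Id4*, *Tob1*, *Chrd*, *Hey1*, *Kdr*, *Cdh5*, *Tal1*, *Gata1*, *Sox17*, *Esrrb*, *Zfp42*, *Klf2*, *Klf4*, *Dppa3*, *Ascl2* and *Elf5* were named outside this rule, after their values were seen. The alternatives were a replicate block, a pseudocount of 0.1, no filter, a mean of at least 5 FPKM, no trend, median centring, quantile normalization, each sample left out, a threshold on fold change and unadjusted p, and the log2 ratio of mean FPKM.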

Additional observations from a re-analysis of the deposited data

How the results depend on the processing

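In the fit of all 4 samples, limma with Benjamini-Hochberg adjustment called 427 genes (226 lower and 201 higher) and 2 members. The replicate block gave 1202 genes and 6 members (5 lower and 1 higher). Across all tested genes, the deviations of same-numbered samples correlated at 0.0348. With only 2 pairs, this value cannot show whether the samples were paired. Without a filter there were 0 genes and 0 members, with 4059 genes and 6 members at an unadjusted p under 0.05. At a mean of at least 5 FPKM, where 6 members were tested, there were 203 genes and 1 member. Without the trend there were 82 genes (27 lower and 55 higher) and 1 member, and with median centring 283 genes (126 lower and 157 higher) and 1 member. A fold change above 2 or below 0.5 with an unadjusted p under 0.05 gave 362 genes (195 lower and 167 higher) and 5 members, all lower. The cause was not tested for these changes, apart from the fewer genes or samples that some of them use.

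With each sample left out in turn, where the lone sample is assumed to vary like the other genotype, the genes called ranged from 0 to 486, the members called from 0 to 4 and the members' median from -1.17 to -0.51. Limma called 0 genes without WT 2 (1875 at an unadjusted p under 0.05, among them 7 members) and without KO 1 (2009, among them 6 members). *Bmp4* changed sign without WT 1 (-0.48), without KO 1 (-0.16) and in the log2 ratio of mean FPKM (-0.029), in a range from -0.48 to 0.59 with a sample left out. The other 9 members kept their direction under every alternative in which they were tested. Median centring and quantile normalization moved the median of all genes from 0.004 to 0.035 and 0.016. Depth limits the low genes, since *Bmp2* in KO 1 rests on about 67 fragments. With 2 samples per genotype, an adjusted p near 0.05 turns on the setting.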

Other observations

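Neuroectoderm and trophectoderm genes gave a mixed picture. Of 7 neuroectoderm genes 3 were tested, and *Sox3*, a gene of the early neural plate, was called higher, at 35.9 FPKM in WT 1, 28.9 in WT 2, 56.4 in KO 1 and 50.0 in KO 2 (log2 fold change 0.70, SE 0.13, limma with Benjamini-Hochberg adjusted p = 0.0493). *Otx2*, the most abundant of them, was at 71.4 and 61.9 FPKM in WT EBs and at 68.1 and 65.4 in KO EBs, and *Nes* was at 21.6 and 24.5 FPKM in WT EBs and at 6.94 and 14.7 in KO EBs. The 4 untested genes stayed at or below 0.952 FPKM, and each was higher in both KO samples than in both WT samples. The summed level of the 7 genes was 130 FPKM in WT 1, 116 in WT 2, 133 in KO 1 and 132 in KO 2. The call of *Sox3* was lost with any of the 4 samples left out. Without KO 2 the 1 gene called was *Nes*, in the opposite direction (-1.60, limma with Benjamini-Hochberg adjusted p = 0.0312), and *Nes* was also called lower under the replicate block.

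Of 6 trophectoderm genes 5 were tested, and *Tfap2c* was called lower, at 9.60 FPKM in WT 1, 16.2 in WT 2, 3.87 in KO 1 and 3.83 in KO 2 (log2 fold change -1.48, SE 0.24, limma with Benjamini-Hochberg adjusted p = 0.0422). The call of *Tfap2c* was lost without WT 2 (-1.13, limma with Benjamini-Hochberg adjusted p = 0.142), without KO 1 (-1.48, adjusted p = 0.177) and without KO 2 (-1.47, adjusted p = 0.0694), where *Eomes* was called lower instead. Their summed level was 189 FPKM in WT 1, 218 in WT 2, 70.8 in KO 1 and 115 in KO 2, and *Elf5*, a defining gene of this lineage, stayed at or below 0.0473 FPKM. *Eomes*, the most abundant of them and also a mesendoderm gene, was at 166 and 168 FPKM in WT EBs and at 56.3 and 97.1 in KO EBs. *Ascl2*, a gene of the trophoblast, went the other way, at 4.16 and 3.64 FPKM in WT EBs and at 6.07 and 5.96 in KO EBs (log2 fold change 0.52, SE 0.14, limma with Benjamini-Hochberg adjusted p = 0.0750).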
